A study of Saccharomyces cerevisiae with 18 samples.

Results

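The genes described here encode the cytosolic translation factors and aminoacyl-tRNA synthetases of the budding yeast Saccharomyces cerevisiae. A list of 51 genes was taken by symbol, of which 48 had a probe of that name on the arrays, out of 5273 named genes tested. They comprise 22 of 23 initiation genes, 6 of 8 elongation genes, both termination genes and all 18 synthetase genes. No probe carried the names TIF1, TEF1 or EFT1, and the near-identical copies TIF2, TEF2 and EFT2 may have bound their transcripts too. Each member had 2 spots of 1 probe, and all 48 were above the local background on all 18 arrays.

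Two-colour 70-mer arrays compared 2 independent wild-type cultures, a and b, with a common pool of wild-type RNA. Cells depleted of glucose by 24 h of growth were placed in fresh synthetic complete medium with 2% glucose, and 1 array per culture was made from RNA taken straight after inoculation (0 min) and at 8 later times, of 3 min, 7.5 min, 15 min, 30 min, 60 min, 110 min, 150 min and 300 min. Time, dilution, fresh medium and glucose cannot be told apart in this design. Values are the authors' log2 ratios of sample to pool, with n = 2 cultures per time, and a ratio of 0 is the level of the pool. The share of gene spots above background was 97.9 to 99.3% per array, and precision is limited by there being 2 arrays a time.

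The dye label of 1 array goes against its values. By their labels both 0 min arrays carry the sample as Cy5, whereas from 3 min on culture a is in Cy3 and culture b in Cy5. As labelled, the 0 min arrays were opposed over all genes (r = -0.91), whereas the cultures correlated at 0.61 to 0.97 at the later times. Genes fixed by genotype showed the same opposition, with 4 alpha-cell genes averaging 4.63 on the array of culture a at 0 min as labelled, against -4.04 for culture b then and -5.06 to -4.24 for the 16 arrays that followed. LYS2, a lysine biosynthesis gene, stood at -3.30 as labelled, against 3.30 in culture b and 3.12 to 4.47 afterwards. The sign of the 0 min array of culture a was therefore turned, and the values as labelled and without that array are given beside the results. With it turned, every array of culture a has the sample in Cy3, so culture and dye cannot be told apart. The strain is labelled BY4742, which as background is an alpha strain without LYS2, while the titles name mating type a. The mean log2 ratio of 5 a-cell genes was 2.65 to 4.51 on the other arrays, which goes against the strain name. On the same arrays the marker gene MET17 was at -5.28 to -4.35. The samples and the pool thus differed at genes of mating type and at both marker genes.

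Translation begins when initiation factors of the eIF4 group load the cap of an mRNA and eIF2, charged with GTP by eIF2B, brings the initiator tRNA to a ribosomal subunit held by eIF3. Elongation factors then deliver aminoacyl-tRNAs and move the ribosome, and release factors end the chain at a stop codon. Aminoacyl-tRNA synthetases join each amino acid to its tRNA. In yeast these genes are known to follow growth, and many are expressed with the ribosomal protein genes.

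Members were higher after the cells entered glucose medium, and at 30 min the synthetases had the highest class median. At 30 min, 34 of 48 members were higher than at 0 min past an adjusted p of 0.01 and 1.7-fold (limma, Benjamini-Hochberg over 5273 genes), where 17.3% of all genes were. None was called lower, where 19.7% of all genes were. The median log2 fold change was 1.10 over the members and -0.01 over all genes. The members called higher were 15 of 22 initiation genes, 3 of 6 elongation genes, 1 of 2 termination genes and 15 of 18 synthetases, with class medians of 0.99, 0.71, 0.81 and 1.73. Both 30 min arrays lay above both 0 min arrays for 43 of the 48, as they did for 2105 of all 5273 genes, with 2206 below. In such bulk cultures a change in the make-up of the cells and a change of RNA per cell cannot be told apart.

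**Figure D1:**
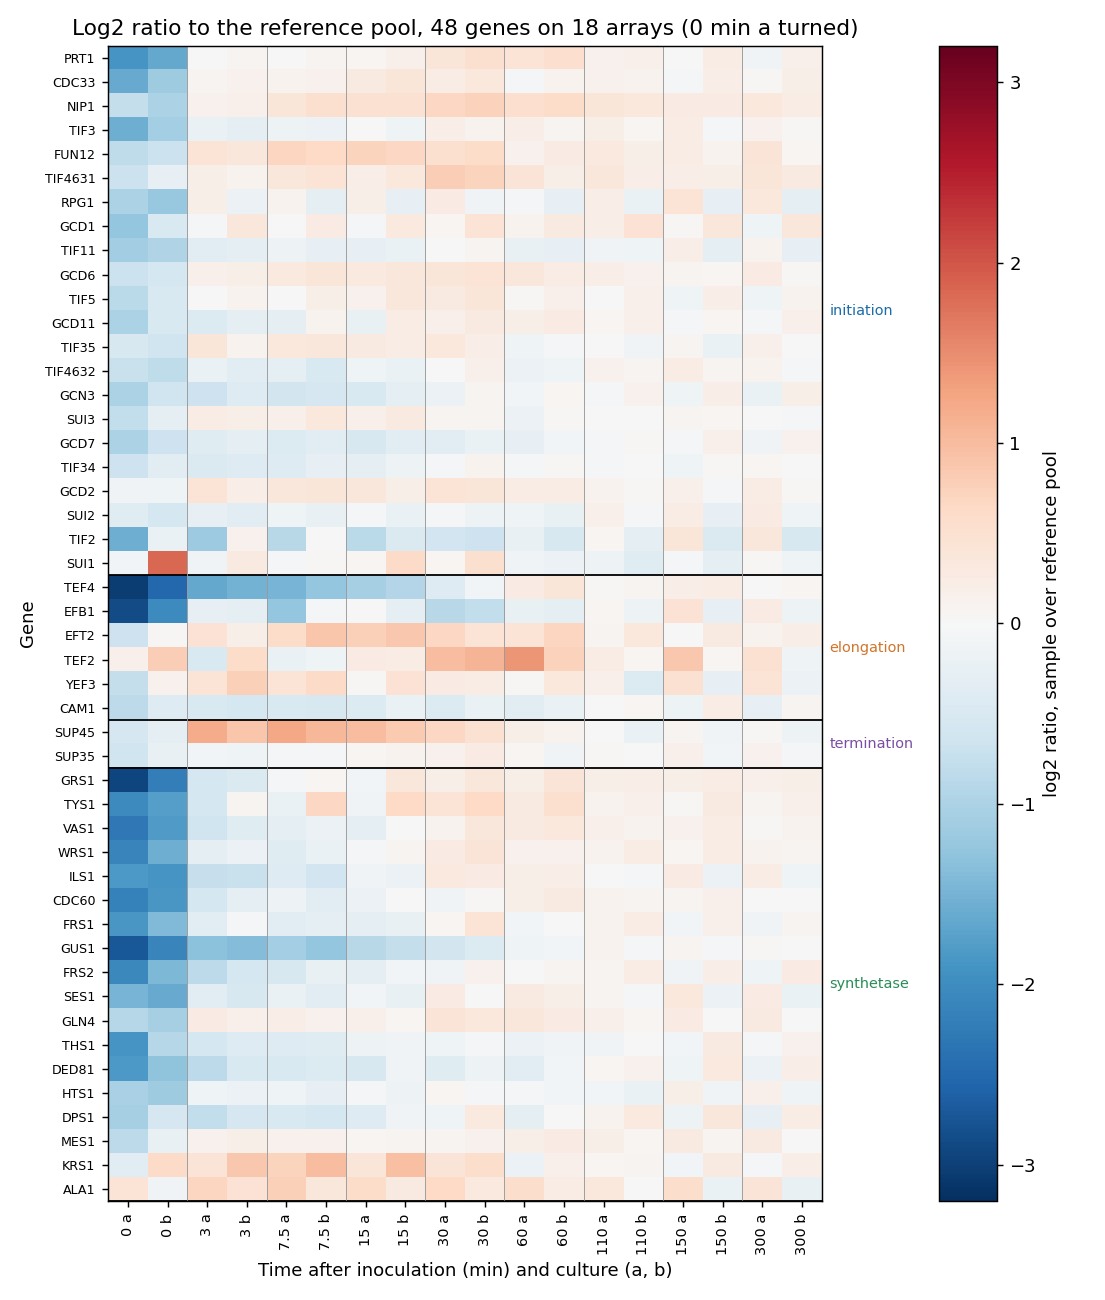
Log2 ratio to the reference pool (colour) of the 48 genes (rows, grouped by class and ordered by the change at 30 min) on the 18 arrays (columns, time in min and culture), after turning the first array of culture a. Blue at 0 min marks ratios below the pool, down to -3.05 for TEF4.

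This count rests on the turned array. As labelled, no member was called in either direction at any of the 8 later times with limma, and between 0 and 3 members were higher, and between 0 and 2 lower, at an unadjusted p under 0.05. Of all 5273 genes 739 were higher and 893 lower at that level at 3 min, and 36 and 90 at 300 min. In that reading the genes called higher were 1.97% (3 min), 1.54% (30 min) and 0% (300 min) of all, and the medians of initiation, elongation and synthetase genes at 30 min were 0.015, -0.36 and -0.001. Without that array, 28 members were called higher and 1, SUI1, lower at 30 min, where 14.7% of all genes were higher. The elongation genes moved most by this, with 1 of 6 called and a median of 0.38, while 14 of 18 synthetases were called. The counts at 3 and 300 min were then 19 and 23, where 9.44% and 16.9% of all genes were higher.

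Most of the difference was present at 3 min. At 3 min, 26 members were called higher than at 0 min and none lower, where 12.2% of all genes were higher and 13.3% lower. The synthetases had 14 of 18 called and a median log2 fold change of 1.10, beside 9 of 22 and 0.73 for initiation, 2 of 6 and 0.77 for elongation and 1 of 2 for termination. With 1 loess curve per array in place of one per print-tip, the elongation median was above that of the synthetases at 3 min (1.18 against 1.04) and 7.5 min (1.34 against 1.21). At 7.5 min 31 members were higher (14.5% of all genes) and at 15 min 29 (15%). At 60 min 30 were (19%), at 110 min 31 (19.7%), and at 150 min 28 (19.6%). At 300 min 30 members were called higher and none lower, where 19.2% of all genes were higher and 19.3% lower. The classes then counted 14 initiation genes, 2 elongation genes, no termination gene and 14 synthetases, with medians of 0.82, 0.50, 0.42 and 1.61. Fitting 1 loess curve per array, they counted 10, 4, 2 and 16, with medians of 0.89, 1.32, 0.88 and 1.76, where 1092 of all 5273 genes were higher. Leaving out culture a at 0 min gave an elongation median of 0.23.

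In both cultures the class medians at each later time were above those at 0 min. The median log2 ratio of the synthetases in culture a was -1.86 (0 min), -0.56 (3 min), -0.25 (7.5 min), 0.10 (30 min) and 0.064 (300 min). In culture b it was -1.43 (0 min), -0.35 (3 min), -0.25 (7.5 min), 0.30 (30 min) and 0.075 (300 min). The initiation genes started closer to the pool, with 0 min medians of -0.84 (culture a) and -0.60 (culture b), and stood at -0.044 and 0.11 by 3 min. Taken as the mean of both cultures, the highest ratio fell at 30, 60 or 110 min in 14 of 18 synthetases and 12 of 22 initiation genes, and at 30 min in 5 and 7 of them. SUI1 alone had its highest mean ratio at 0 min.

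**Figure D2:**
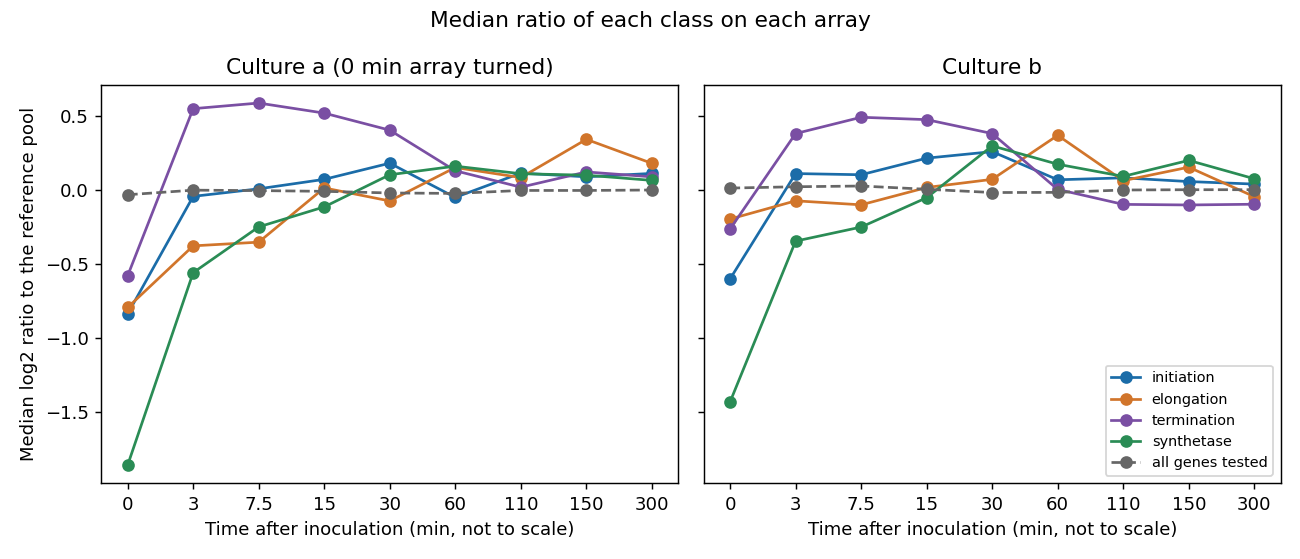
Median log2 ratio to the reference pool (vertical axis) of each class at the 9 times (horizontal axis, not to scale) in culture a (left, 0 min array turned) and culture b (right), with the median of all genes tested as a dashed line. The synthetase median is the lowest at 0 min in both cultures, at -1.86 and -1.43, and at 300 min the class medians lie between -0.097 and 0.179.

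Among the initiation genes, the cap-binding group and eIF3 held the largest changes at 30 min. PRT1, a subunit of eIF3, had log2 ratios of 0.39 and 0.50 at 30 min in cultures a and b, against -1.89 and -1.63 at 0 min. The log2 fold change was 2.21 ± 0.12 (SE, 4.61-fold, adjusted p = 1.32e-08). NIP1, another eIF3 subunit, had 0.67 and 0.74 at 30 min, against -0.76 and -1.01 at 0 min, a log2 fold change of 1.59 ± 0.08 (adjusted p = 1.13e-08). In both genes the 2 times did not overlap. Over the course PRT1 stood at -1.89 (0 min), -0.015 (3 min), 0.01 (7.5 min), 0.069 (15 min), 0.39 (30 min), 0.43 (60 min), 0.15 (110 min), 0.008 (150 min), -0.11 (300 min) in culture a, and at -1.63 (0 min), 0.096 (3 min), 0.085 (7.5 min), 0.17 (15 min), 0.50 (30 min), 0.55 (60 min), 0.16 (110 min), 0.25 (150 min), 0.17 (300 min) in culture b. The ratios of NIP1 by time were -0.76 (0 min), 0.15 (3 min), 0.38 (7.5 min), 0.49 (15 min), 0.67 (30 min), 0.54 (60 min), 0.39 (110 min), 0.27 (150 min), 0.34 (300 min) in culture a, and -1.01 (0 min), 0.16 (3 min), 0.52 (7.5 min), 0.49 (15 min), 0.74 (30 min), 0.58 (60 min), 0.34 (110 min), 0.25 (150 min), 0.23 (300 min) in culture b. Both genes had their lowest ratio in each culture at 0 min. Of the 5 eIF3 genes 4 were called at 30 min, with TIF34 the exception, and their log2 fold changes ran between 0.55 and 2.21. With 1 loess curve per array TIF34 had 0.18 and 0.28 at 30 min, against -0.74 and -0.55 at 0 min, and was called too.

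CDC33, which encodes the cap-binding protein eIF4E, had 0.24 and 0.33 at 30 min, against -1.63 and -1.15 at 0 min (log2 fold change 1.67 ± 0.14, adjusted p = 5.07e-07). TIF4631 and TIF4632 encode both forms of the scaffold eIF4G. TIF4631 had 0.78 and 0.72 at 30 min, against -0.70 and -0.27 at 0 min, and TIF4632 had 0.011 and 0.15, against -0.72 and -0.81. Both were called, at 1.24 ± 0.12 and 0.85 ± 0.09 on the log2 scale (adjusted p = 2.87e-06 and 4.72e-06), and the difference between the paralogs was not tested. Culture a gave TIF4631 ratios of -0.70 (0 min), 0.18 (3 min), 0.37 (7.5 min), 0.21 (15 min), 0.78 (30 min), 0.40 (60 min), 0.37 (110 min), 0.22 (150 min), 0.38 (300 min), and culture b gave -0.27 (0 min), 0.12 (3 min), 0.43 (7.5 min), 0.35 (15 min), 0.72 (30 min), 0.19 (60 min), 0.20 (110 min), 0.18 (150 min), 0.28 (300 min). Sampled in order, TIF4632 read -0.72 (0 min), -0.22 (3 min), -0.30 (7.5 min), -0.14 (15 min), 0.011 (30 min), -0.18 (60 min), 0.14 (110 min), 0.23 (150 min), 0.10 (300 min) in culture a, and -0.81 (0 min), -0.37 (3 min), -0.48 (7.5 min), -0.22 (15 min), 0.15 (30 min), -0.15 (60 min), 0.094 (110 min), 0.091 (150 min), -0.036 (300 min) in culture b. Over the course CDC33 stood at -1.63 (0 min), 0.08 (3 min), 0.10 (7.5 min), 0.29 (15 min), 0.24 (30 min), -0.037 (60 min), 0.13 (110 min), -0.062 (150 min), 0.033 (300 min) in culture a, and at -1.15 (0 min), 0.15 (3 min), 0.13 (7.5 min), 0.39 (15 min), 0.33 (30 min), 0.10 (60 min), 0.12 (110 min), 0.22 (150 min), 0.18 (300 min) in culture b. Each of the 3 had its lowest ratio in both cultures at 0 min. TIF3, the eIF4B gene, was also called, at 1.49 ± 0.14.

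TIF2, which encodes the helicase eIF4A, was the member of the group that was not called. It had -0.62 and -0.66 at 30 min, against -1.56 and -0.23 at 0 min, so the 30 min arrays lay between the 0 min arrays. Its log2 fold change of 0.25 ± 0.52 did not pass (adjusted p = 0.69), and without the 0 min array of culture a it was -0.42. The ratios of TIF2 by time were -1.56 (0 min), -1.15 (3 min), -0.90 (7.5 min), -0.86 (15 min), -0.62 (30 min), -0.23 (60 min), 0.052 (110 min), 0.39 (150 min), 0.37 (300 min) in culture a, and -0.23 (0 min), 0.13 (3 min), 0.009 (7.5 min), -0.46 (15 min), -0.66 (30 min), -0.52 (60 min), -0.32 (110 min), -0.46 (150 min), -0.52 (300 min) in culture b. The cultures were on opposite sides of the pool at several times. Spots of this probe were above the saturation limit of 32768 in either channel on 14 of 18 arrays. Under 1 loess curve per array its ratios were 0.048 and 0.25 at 30 min, against -1.56 and -0.175 at 0 min, which did not overlap, and the change of 1.01 was not called either (adjusted p = 0.025).

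The genes of eIF2 and of its exchange factor eIF2B had smaller values. Of 3 eIF2 genes only GCD11, the gamma subunit, was called at 30 min, and the log2 fold changes of the 3 ran between 0.36 and 0.97. SUI2, the alpha subunit, had -0.04 and -0.17 at 30 min, against -0.38 and -0.56 at 0 min, a log2 fold change of 0.36 ± 0.17 that did not pass (adjusted p = 0.066) but was 0.81 and called with 1 loess curve per array. Culture a gave SUI2 ratios of -0.38 (0 min), -0.25 (3 min), -0.15 (7.5 min), -0.06 (15 min), -0.041 (30 min), -0.15 (60 min), 0.16 (110 min), 0.23 (150 min), 0.26 (300 min), and culture b gave -0.56 (0 min), -0.36 (3 min), -0.23 (7.5 min), -0.20 (15 min), -0.17 (30 min), -0.25 (60 min), -0.037 (110 min), -0.27 (150 min), -0.15 (300 min). Among the 5 eIF2B genes GCD1, GCD6 and GCN3 were called and GCD2 and GCD7 were not. GCN3, at 1.702-fold, was the called member nearest to the fold threshold, and MES1, at 1.57-fold, was the nearest below it.

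The factors that scan for the start codon and join the subunits were called in 3 of 4 cases at 30 min. FUN12, the eIF5B gene, had 0.50 and 0.59 at 30 min, against -0.81 and -0.68 at 0 min (log2 fold change 1.29 ± 0.11, adjusted p = 6.36e-07), and TIF5 and TIF11 were called as well. SUI1, the eIF1 gene, had 0.07 and 0.50 at 30 min, against -0.10 and 1.83 at 0 min. The 0 min arrays of this gene differed more than those of any other member, and its log2 fold change of -0.58 ± 0.45 did not pass (adjusted p = 0.27). The value depended on which 0 min array was kept. It was -1.54 without that of culture a, where SUI1 was called lower, and 0.38 without that of culture b. With 1 loess curve per array it was 0.46.

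**Figure D3:**
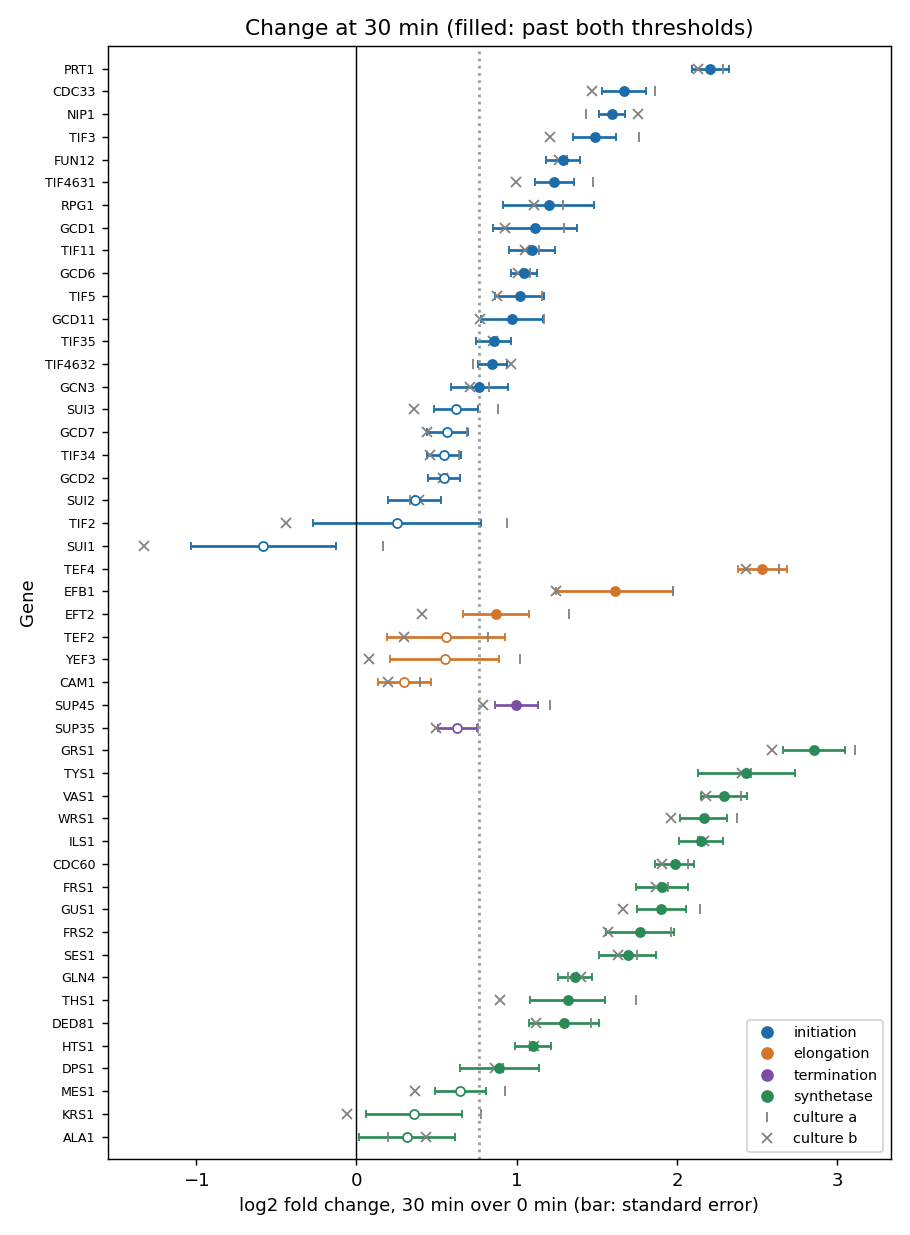
Log2 fold change at 30 min over 0 min (horizontal axis, point with standard error) of the 48 genes (vertical axis), with the value in culture a (bar mark) and culture b (cross). Filled points passed both thresholds, the dotted line is a fold change of 1.7, and GRS1 (2.85) and SUI1 (-0.58) mark the ends.

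The elongation genes split by gene. TEF4 and CAM1 encode the gamma subunit of eEF1B, the exchange factor of eEF1A. TEF4 had -0.41 and -0.09 at 30 min, against -3.05 and -2.51 at 0 min, a log2 fold change of 2.53 ± 0.16 (5.78-fold, adjusted p = 4.5e-08). CAM1 had -0.43 and -0.23 at 30 min, against -0.83 and -0.42 at 0 min, and its 0.30 ± 0.17 did not pass (adjusted p = 0.13). The 2 times did not overlap for TEF4 but did for CAM1, and the difference between these paralogs was not tested. Sampled in order, TEF4 read -3.05 (0 min), -1.63 (3 min), -1.48 (7.5 min), -1.07 (15 min), -0.41 (30 min), 0.27 (60 min), 0.039 (110 min), 0.21 (150 min), 0.018 (300 min) in culture a, and -2.51 (0 min), -1.51 (3 min), -1.24 (7.5 min), -0.94 (15 min), -0.085 (30 min), 0.40 (60 min), 0.082 (110 min), 0.25 (150 min), 0.052 (300 min) in culture b. Over the course CAM1 stood at -0.83 (0 min), -0.49 (3 min), -0.50 (7.5 min), -0.45 (15 min), -0.43 (30 min), -0.35 (60 min), 0.009 (110 min), -0.18 (150 min), -0.25 (300 min) in culture a, and at -0.42 (0 min), -0.57 (3 min), -0.51 (7.5 min), -0.21 (15 min), -0.23 (30 min), -0.21 (60 min), 0.061 (110 min), 0.23 (150 min), 0.075 (300 min) in culture b. TEF4 was above the pool in both cultures at 60 min, having been far below it at 3 min.

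EFB1, which encodes the alpha subunit of eEF1B, had -0.89 and -0.79 at 30 min, against -2.87 and -2.04 at 0 min (log2 fold change 1.61 ± 0.37, adjusted p = 0.0019). Its cultures differed at 7.5 min, at -1.23 and -0.05. The call was lost on leaving out culture a at 0 min (1.197) or culture b at 30 min (1.56). EFT2, the eEF2 gene, had 0.66 and 0.44 at 30 min, against -0.67 and 0.028 at 0 min (0.87 ± 0.21, adjusted p = 0.0026), and was not called without either array of culture a, at 0.52 without that of 0 min and 0.76 without that of 30 min. The ratios of EFB1 by time were -2.87 (0 min), -0.27 (3 min), -1.23 (7.5 min), -0.002 (15 min), -0.89 (30 min), -0.23 (60 min), 0.073 (110 min), 0.47 (150 min), 0.26 (300 min) in culture a, and -2.04 (0 min), -0.32 (3 min), -0.054 (7.5 min), -0.32 (15 min), -0.79 (30 min), -0.30 (60 min), -0.17 (110 min), -0.26 (150 min), -0.16 (300 min) in culture b. Culture a gave EFT2 ratios of -0.67 (0 min), 0.46 (3 min), 0.59 (7.5 min), 0.77 (15 min), 0.66 (30 min), 0.45 (60 min), 0.094 (110 min), -0.009 (150 min), 0.10 (300 min), and culture b gave 0.028 (0 min), 0.18 (3 min), 0.88 (7.5 min), 0.85 (15 min), 0.44 (30 min), 0.68 (60 min), 0.35 (110 min), 0.28 (150 min), 0.20 (300 min).

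Saturation limits these genes. Spots above 32768 in either channel were present on 18 arrays for TEF2 and EFT2, on 17 for YEF3, on 15 for EFB1 and on 6 for TEF4. TEF2, an eEF1A gene, had 0.99 and 1.08 at 30 min, against 0.17 and 0.78 at 0 min. All its sample spots were above the limit at both times, so no fold is given. YEF3, the gene of the fungal factor eEF3, had 0.26 and 0.23 at 30 min, against -0.76 and 0.15 at 0 min, with all sample spots above the limit at 30 min. Sampled in order, YEF3 read -0.76 (0 min), 0.44 (3 min), 0.43 (7.5 min), 0.027 (15 min), 0.26 (30 min), 0.03 (60 min), 0.15 (110 min), 0.49 (150 min), 0.43 (300 min) in culture a, and 0.15 (0 min), 0.77 (3 min), 0.60 (7.5 min), 0.46 (15 min), 0.23 (30 min), 0.34 (60 min), -0.45 (110 min), -0.26 (150 min), -0.20 (300 min) in culture b. CAM1 had no spot above the limit. With 1 loess curve per array the elongation median at 30 min was 1.48. In that setting EFT2 had -0.049 and 0.099 at 30 min, against -2.70 and -0.84 at 0 min. YEF3 had 0.37 and 0.62, against -1.58 and 0.012. The size of the change in both genes thus depended on the loess setting.

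Of the release factor genes SUP45 was called at 30 min and SUP35 was not. SUP45, which encodes eRF1, had 1.195 and 0.89 at 3 min, against -0.53 and -0.29 at 0 min, a log2 fold change of 1.46 ± 0.13 (adjusted p = 2.37e-06). Over the course SUP45 stood at -0.53 (0 min), 1.195 (3 min), 1.23 (7.5 min), 0.98 (15 min), 0.67 (30 min), 0.19 (60 min), -0.005 (110 min), 0.09 (150 min), 0.028 (300 min) in culture a, and at -0.29 (0 min), 0.89 (3 min), 1.05 (7.5 min), 0.84 (15 min), 0.50 (30 min), 0.12 (60 min), -0.21 (110 min), -0.12 (150 min), -0.15 (300 min) in culture b. It was the only member called lower at 300 min than at 3 min, with a log2 value of -1.11 ± 0.13 (adjusted p = 1.84e-05). With 1 loess curve per array its 3 min ratios were 0.025 and -0.001, against -1.04 and -0.79 at 0 min. The change between 3 and 300 min was then -0.025, while SUP45 was still called higher at 3 min than at 0 min (0.93). SUP35, which encodes eRF3, had 0.13 and 0.26 at 30 min, against -0.63 and -0.24 at 0 min, and its 0.63 ± 0.12 passed the p threshold but not the fold threshold (adjusted p = 0.00071). Both were called at 30 min with 1 loess curve per array, SUP35 at 1.198 and SUP45 at 1.11, and the difference between these genes was not tested. The ratios of SUP35 by time were -0.63 (0 min), -0.099 (3 min), -0.052 (7.5 min), 0.061 (15 min), 0.13 (30 min), 0.065 (60 min), 0.041 (110 min), 0.15 (150 min), 0.15 (300 min) in culture a, and -0.24 (0 min), -0.13 (3 min), -0.074 (7.5 min), 0.11 (15 min), 0.26 (30 min), -0.11 (60 min), 0.017 (110 min), -0.088 (150 min), -0.041 (300 min) in culture b.

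At 30 min a synthetase had the largest change of the members. GRS1, the glycyl-tRNA synthetase gene, had 0.18 and 0.37 at 30 min, against -2.93 and -2.22 at 0 min, a log2 fold change of 2.85 ± 0.19 (7.22-fold, adjusted p = 1.06e-07). TEF4 had the larger value from 60 min on, at 3.11 beside 2.88 for GRS1 at 60 min, and with 1 loess curve per array also at 30 min (2.80 beside 2.30). TYS1, for tyrosine, had 0.43 and 0.65 at 30 min, against -2.03 and -1.75 at 0 min (2.43 ± 0.30, adjusted p = 1.8e-05). VAS1, for valine, had 0.12 and 0.36, against -2.29 and -1.82 at 0 min (2.29 ± 0.15, adjusted p = 6.38e-08). None of the 3 overlapped between the times. Culture a gave GRS1 ratios of -2.93 (0 min), -0.57 (3 min), -0.027 (7.5 min), -0.077 (15 min), 0.18 (30 min), 0.20 (60 min), 0.19 (110 min), 0.18 (150 min), 0.17 (300 min), and culture b gave -2.22 (0 min), -0.47 (3 min), 0.068 (7.5 min), 0.36 (15 min), 0.37 (30 min), 0.41 (60 min), 0.22 (110 min), 0.24 (150 min), 0.18 (300 min). Sampled in order, TYS1 read -2.03 (0 min), -0.56 (3 min), -0.22 (7.5 min), -0.11 (15 min), 0.43 (30 min), 0.29 (60 min), 0.11 (110 min), 0.038 (150 min), 0.082 (300 min) in culture a, and -1.75 (0 min), 0.084 (3 min), 0.65 (7.5 min), 0.64 (15 min), 0.65 (30 min), 0.51 (60 min), 0.15 (110 min), 0.29 (150 min), 0.17 (300 min) in culture b. Over the course VAS1 stood at -2.29 (0 min), -0.63 (3 min), -0.28 (7.5 min), -0.28 (15 min), 0.12 (30 min), 0.29 (60 min), 0.16 (110 min), 0.13 (150 min), 0.046 (300 min) in culture a, and at -1.82 (0 min), -0.39 (3 min), -0.18 (7.5 min), -0.001 (15 min), 0.36 (30 min), 0.33 (60 min), 0.11 (110 min), 0.24 (150 min), 0.10 (300 min) in culture b. In TYS1 the cultures lay apart at 3 and 7.5 min, with culture b the higher.

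The other synthetases called were those for tryptophan (WRS1, 2.17), isoleucine (ILS1, 2.15), leucine (CDC60, 1.99) and glutamate (GUS1, 1.90), both subunits of the phenylalanine enzyme (FRS1 and FRS2), and those for serine, glutamine, threonine, asparagine, histidine and aspartate (SES1, GLN4, THS1, DED81, HTS1 and DPS1). DPS1 had the smallest called value, at 1.855-fold.

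The synthetases for methionine, lysine and alanine did not pass. ALA1 had 0.64 and 0.32 at 30 min, against 0.45 and -0.12 at 0 min, and its log2 fold change was 0.31 ± 0.30 (adjusted p = 0.37), so its times overlapped. KRS1, for lysine, had 0.41 and 0.56, against -0.37 and 0.62 at 0 min (0.36 ± 0.30, adjusted p = 0.30), and its times overlapped too. MES1, for methionine, had 0.09 and 0.14, against -0.84 and -0.23 at 0 min, and its value was 0.65 ± 0.16, under the fold threshold. On the 0 min array of culture b, 5 members lay above the pool, which were KRS1, SUI1, TEF2, EFT2 and YEF3. The ratios of ALA1 by time were 0.45 (0 min), 0.69 (3 min), 0.76 (7.5 min), 0.58 (15 min), 0.64 (30 min), 0.57 (60 min), 0.33 (110 min), 0.56 (150 min), 0.42 (300 min) in culture a, and -0.12 (0 min), 0.47 (3 min), 0.37 (7.5 min), 0.28 (15 min), 0.32 (30 min), 0.23 (60 min), 0.003 (110 min), -0.22 (150 min), -0.24 (300 min) in culture b. Culture a gave KRS1 ratios of -0.37 (0 min), 0.42 (3 min), 0.71 (7.5 min), 0.38 (15 min), 0.41 (30 min), -0.19 (60 min), 0.068 (110 min), -0.095 (150 min), -0.051 (300 min), and culture b gave 0.62 (0 min), 0.87 (3 min), 0.99 (7.5 min), 0.97 (15 min), 0.56 (30 min), 0.15 (60 min), 0.089 (110 min), 0.29 (150 min), 0.21 (300 min). Both were above the pool on most arrays up to 30 min. MES1 was called with 1 loess curve per array, at 1.24, while ALA1 (0.64, its times then not overlapping) and KRS1 (0.83) were not.

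**Figure D4:**
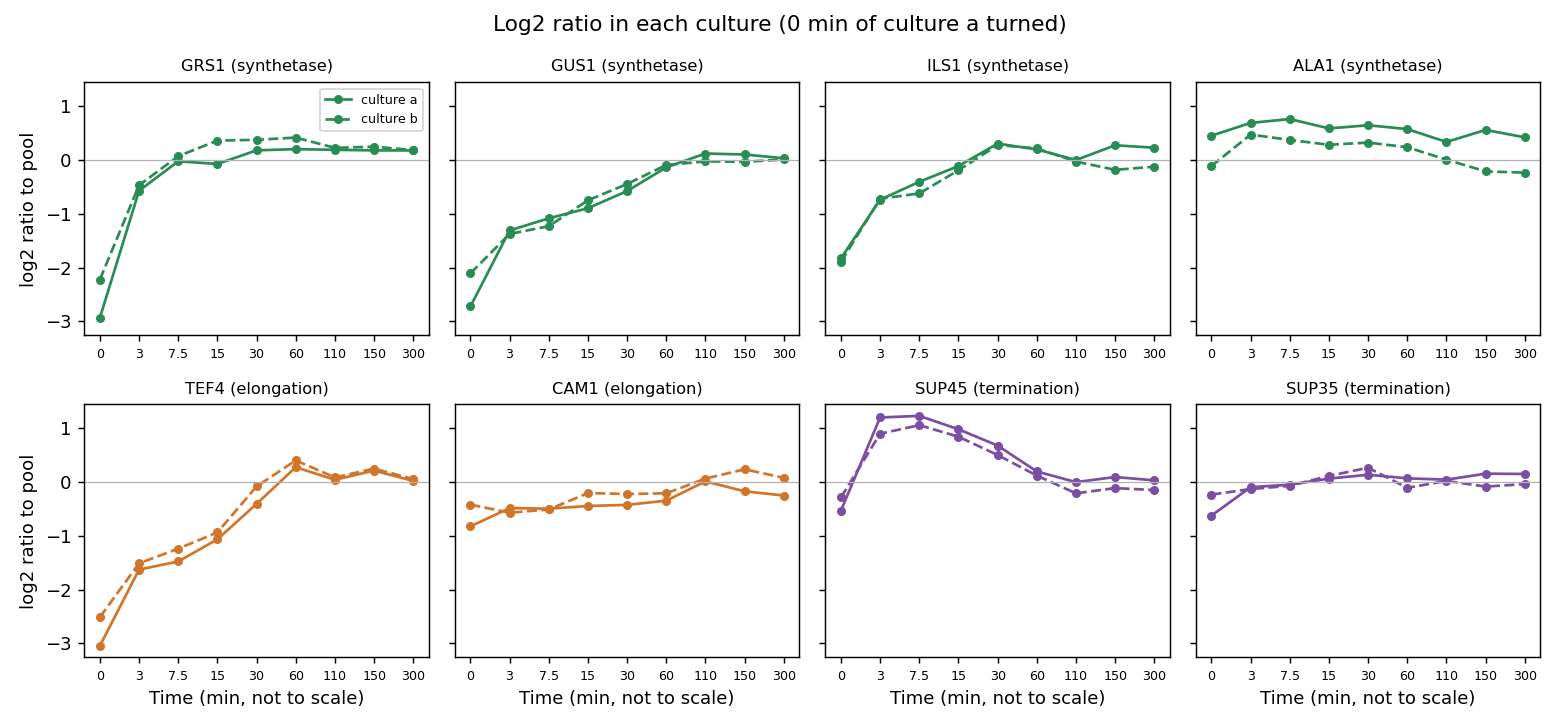
Log2 ratio to the reference pool (vertical axis) at the 9 times (horizontal axis, not to scale) in culture a (solid line) and culture b (dashed line) for 8 genes, after turning the first array of culture a. GRS1 is at -0.027 and 0.068 at 7.5 min, GUS1 is at -0.14 and -0.096 at 60 min, ALA1 and CAM1 were not called, and SUP45 is highest at 3 and 7.5 min.

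Comparisons that use no 0 min value showed which members went on changing. At 30 min against 3 min, 4 members were called higher, where 2.48% of all genes were, and none lower, where 7.17% were. These were TEF4, ILS1, GUS1 and GRS1. TEF4 had -0.41 and -0.09 at 30 min, against -1.63 and -1.51 at 3 min (log2 fold change 1.32 ± 0.16, adjusted p = 4.61e-05). ILS1 had 0.30 and 0.27, against -0.74 and -0.72 at 3 min (1.02 ± 0.14, adjusted p = 0.000145). Sampled in order, ILS1 read -1.83 (0 min), -0.74 (3 min), -0.41 (7.5 min), -0.12 (15 min), 0.30 (30 min), 0.19 (60 min), -0.004 (110 min), 0.27 (150 min), 0.23 (300 min) in culture a, and -1.90 (0 min), -0.72 (3 min), -0.62 (7.5 min), -0.20 (15 min), 0.27 (30 min), 0.21 (60 min), -0.032 (110 min), -0.19 (150 min), -0.13 (300 min) in culture b.

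GUS1 had -0.58 and -0.45 at 30 min, against -1.31 and -1.38 at 3 min (0.83 ± 0.15, adjusted p = 0.0012). GRS1 had 0.18 and 0.37 at 30 min, against -0.57 and -0.47 at 3 min (0.80 ± 0.19, adjusted p = 0.0067). Neither gene overlapped between the times. Both 30 min arrays lay above both 3 min arrays for 33 of the 48 members and 1819 of all 5273 genes, and below for 5 and 1950. Over the course GUS1 stood at -2.72 (0 min), -1.31 (3 min), -1.09 (7.5 min), -0.90 (15 min), -0.58 (30 min), -0.14 (60 min), 0.12 (110 min), 0.099 (150 min), 0.029 (300 min) in culture a, and at -2.11 (0 min), -1.38 (3 min), -1.23 (7.5 min), -0.75 (15 min), -0.45 (30 min), -0.096 (60 min), -0.029 (110 min), -0.037 (150 min), 0.007 (300 min) in culture b. GRS1 was not called when any 1 of the 4 arrays was left out (0.70 to 0.89), GUS1 not without the 3 min array of culture b (0.80), and without the 30 min array of culture b (GUS1 at 0.76) only 2 members, TEF4 and ILS1, were called. The class medians at 30 min against 3 min were 0.51 for synthetases, 0.22 for initiation, 0.22 for elongation and -0.07 for termination, beside -0.009 for all genes.

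The opposed 0 min arrays enter these comparisons through the shared estimate of the spread. As labelled, none of the 4 was called with limma. There 2 members had an unadjusted p under 0.05, beside 180 genes higher and 274 lower of all 5273. With both 0 min arrays left out of the model, chosen after the data were seen, 4 members were called, where 2.81% of all genes were higher.

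No member was called at 300 min against 30 min with limma, where 8.59% of all genes were higher and 6.64% lower. At an unadjusted p under 0.05, 3 members were higher and 9 lower, beside 1522 and 1419 of all 5273 genes. With culture as a block 5 and 15 were, beside 1871 and 1788. The median log2 fold change was -0.13 over the members, -0.14 over initiation genes and -0.10 over synthetases. EFB1, at 0.26 and -0.16 at 300 min against -0.89 and -0.79 at 30 min, was called only in a model of these 2 times.

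Across the later part of the course, 3 members were higher at 300 min than at 3 min, where 13.6% of all genes were, and SUP45 was lower, where 13.7% were. GUS1 had 0.029 and 0.007 at 300 min, against -1.31 and -1.38 at 3 min (1.36 ± 0.15, adjusted p = 1.05e-05). TEF4 had 0.018 and 0.052, against -1.63 and -1.51 at 3 min (1.61 ± 0.16, adjusted p = 2.99e-06). ILS1 was higher by 0.78 ± 0.14 and was not called without the 300 min array of culture a (0.60). These 4 calls held with both 0 min arrays left out, where 14.1% of all genes were higher. None held as labelled, where 2 members had an unadjusted p under 0.05 with limma, beside 730 genes higher and 711 lower of all 5273.

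**Figure D5:**
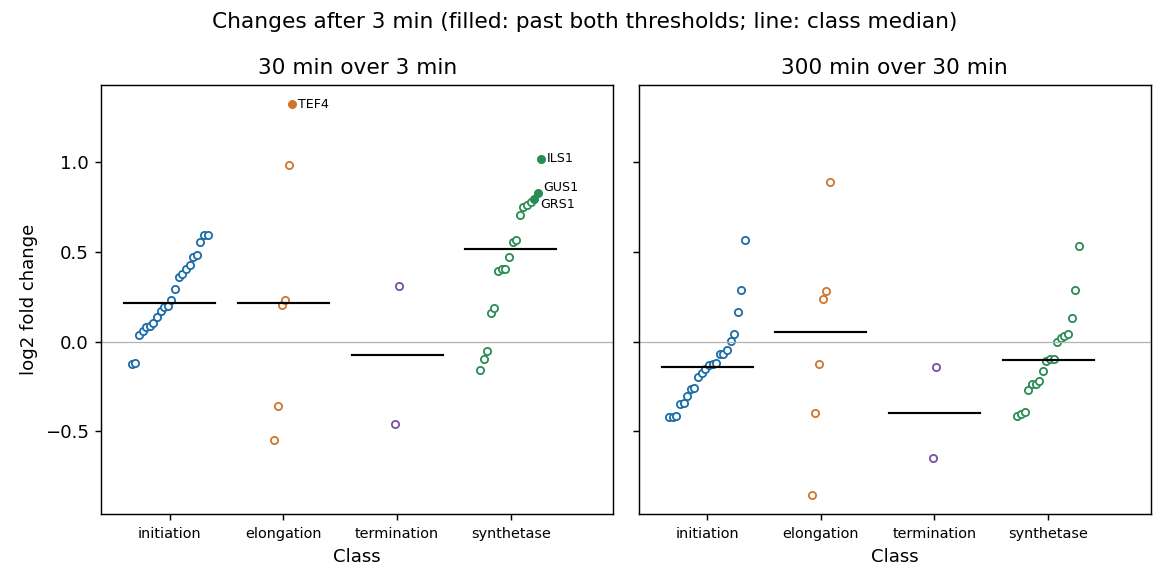
Log2 fold change (vertical axis) of each gene by class (horizontal axis) at 30 min over 3 min (left) and 300 min over 30 min (right), with filled points past both thresholds and a line at the class median. TEF4, ILS1, GUS1 and GRS1 pass on the left, and no gene passes on the right.

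The share of the difference present at 3 min varied among members. In the means of both cultures, RPG1, a subunit of eIF3, had 92.9% of its 30 min change at 3 min and PRT1 81.7%. The 15 initiation genes called ran between 37.2% (GCN3) and 95.5% (TIF35), and TIF34, an uncalled eIF3 gene, had 13.98%. Among synthetases GRS1 had 72.1%, GUS1 56.4% and ILS1 52.6%, while DPS1 had 14.7%. TEF4 had 47.7%. Other members had a higher mean at 3 min than at 30 min, among them the called genes SUP45 (145.9%) and EFB1 (133.9%). The uncalled ones were YEF3 (165.4%), TIF2 (150.7%), KRS1 (144.6%), ALA1 (130.6%), SUI3 (119.2%) and MES1 (108.1%). SUI1, lower at 30 min than at 0 min, had 133.5%. TEF2, with saturated spots, was lower at 3 min than at 0 min and had -76.5%. With 1 loess curve per array SUP45 had 0.025 and -0.001 at 3 min and 0.31 and 0.085 at 30 min. EFB1 had -0.87 and -0.27 at 3 min and -0.17 and 0.165 at 30 min. There 30 min was the higher time in both cultures for these genes, as for TIF2, SUI3 and MES1. For YEF3, KRS1 and ALA1 it was so in culture a only. EFB1, YEF3 and TIF2 had saturated spots too. These shares use the turned array and are descriptions with no test.

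External control RNAs, added in equal amounts to total RNA, give another scale. The median log2 ratio of 528 spots of 3 bright control probes was 0.021 to 0.89 on the 16 later arrays, against 1.15 and 1.82 at 0 min. The 1.15 of culture a is from the turned array and has the opposite sign as labelled, so this scale rests on the turning too. Its values as labelled or without that array are not given. These control probes were chosen after the data were seen. Shifting each array to the control spots moved the median of all genes against 0 min to 0.79 (3 min), 1.18 (30 min) and 1.38 (300 min). The median of the members was then 1.701 (3 min), 2.29 (30 min) and 2.26 (300 min). On this scale 46 members were called higher at 3 min and 47 at both 30 and 300 min, where 2614 of all 5273 genes were higher at 3 min and 3911 at 300 min. Of all genes 3578 were higher and 235 lower at 30 min, beside 914 and 1037 on the authors' scale.

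Other genes of cytosolic translation, from a list of 28 further factors, were called higher in 15 cases and lower in 1 at 30 min, with a median log2 fold change of 0.97, where 17.3% of all genes were higher and 19.7% lower. As labelled none was called with limma, and 5 had an unadjusted p under 0.05, beside 571 genes higher and 674 lower of all 5273. Without the 0 min array of culture a the median log2 fold change of the 28 was 0.75. SRO9, an RNA-binding protein of translating ribosomes, was higher by 2.40 ± 0.21, RLI1, which recycles ribosomes, by 2.26 ± 0.17, and GCN1, an activator of the eIF2 kinase, by 2.03 ± 0.12. DBP1, a helicase related to Ded1, was lower (-1.80 ± 0.11). ARC1, which binds the synthetases for methionine and glutamate, was higher by 1.57 ± 0.14 and was also called at 30 min against 3 min (0.91). Of the remaining cytosolic synthetase genes 2 had a probe, and YDR341C, for arginine, was called at 30 min (1.54 ± 0.23) while YHR020W, for proline, was not.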

How the data were processed

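The authors deposited, per array, scanner intensities of 15552 spots and a table of log2 ratios of sample over pool. According to the Methods loess was run per print-tip (span 0.4) without subtracting background, and spots above 32768 were left out of the curve. Gene-specific dye bias was not corrected in the time-course. The submitters' notes name limma 2.12.0. The deposited log2 ratios were used after averaging the 2 spots of a probe, and loess recomputed from the deposited intensities correlated with them at 0.9998 to 1 per array.

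Of 6388 gene probes 5326 had a name, 5266 by current and 58 by older symbol. The brighter probe per gene was kept, and mitochondrial (19) and transposable element (22) probes were left out, as was YDL196W where present. One coefficient per time was fitted over 18 arrays with limma 3.58.1 in R 4.3.3 (9 residual degrees of freedom), checked on simulated data. Thresholds were those of the Methods.

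The cultures pair the arrays, since the Methods compare the same cultures with 0 min, and with the array turned their differences correlated between times at 0.24 to 0.90 (36 pairs of times). Members and lists were chosen with earlier results of these data known. Values on every array are given for the 3 largest and 2 smallest changes at 30 min per class, both termination genes, called later changes and paralogs. The other members named with a fold change (WRS1, CDC60, TIF3, FUN12, SUI1, MES1, GCN3 and DPS1), the comparison of 300 with 3 min, and the 3 control probes, those brighter than the median gene spot in both channels, were chosen after the values were seen.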

Additional observations from a re-analysis of the deposited data

How the results depend on the processing

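As labelled, 0 members were called higher at each of the 8 later times, 0 at 30 min against 3 min and 0 at 300 min against 3 min. In the same setting the log2 fold change at 30 min against 0 min was negative for 24 of 48 members. Among those given with a log2 value of their own it turned negative for TIF2 (-1.31), EFB1 (-1.26), GUS1 (-0.82), CAM1 (-0.53), TEF4 (-0.51), MES1 (-0.19), CDC60 (-0.19), GRS1 (-0.081), TIF3 (-0.068), SUI2 (-0.013) and KRS1 (-0.008). DPS1 and GCN3, given above as folds, turned negative too. Shifted to the external control spots, 46 members were called higher at 3 and 15 min and 47 at 60, 110, 150 and 300 min, with 21 called at 30 min against 3 min and 22 at 300 min against 3 min, where 2614 (3 min), 3855 (60 min) and 3911 (300 min) of 5273 genes were higher against 0 min, 692 at 30 min against 3 min and 1816 at 300 min against 3 min, and SUI1 turned to 0.62. With a model of the 2 times only, 14 members were higher at 3 min and 17 at 7.5 min, and 1 was called at 300 min against 30 min. How many of all genes were called in that model is not given here, so these counts stand without a background. With 1 loess curve per array SUI1 was at 0.46, and the elongation median was 1.48 (30 min) and 1.32 (300 min). In that setting SUI2, TIF34, SUP35 and MES1 were called at 30 min, among 38 members and 961 of 5273 genes called higher. SUP45 and ILS1 were not called in it at 300 min against 3 min. There 6 members were higher, as were 772 of 5273 genes.

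Leaving out 1 array at a time gave 19 to 32 members higher at 3 min, 28 to 36 at 30 min, 23 to 32 at 300 min, and 2 to 4 called at 30 min against 3 min. Without the 0 min array of culture a, TIF2 was at -0.42, KRS1 at -0.13 and SUI1 at -1.54, and without that of culture b they were at 0.92, 0.85 and 0.38. With culture as a block, for the pairing, the counts were 26 at 3 min, 34 at 30 min, 31 at 300 min, 5 at 30 min against 3 min and 0 at 300 min against 30 min, and the counts at the other times were as without the block. Of all 5273 genes 683, 947 and 1046 were higher with the block at 3, 30 and 300 min, and 152 at 30 min against 3 min. At 300 min against 30 min 477 were higher and 369 lower. Print-tip loess from the scanner, normexp, probes above background on all arrays and all gene probes kept every count of members within 1.5 times its value. The causes were not tested. Precision is limited by 2 arrays per time and, for the elongation genes, by saturated spots.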

Other observations

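The mitochondrial counterparts were measured too. Of 14 mitochondrial synthetase genes none was called at 30 min against 0 min with limma, where 17.3% of all genes were higher and 19.7% lower. In the same fit 9 had an unadjusted p under 0.05, beside 1894 genes higher and 1960 lower of all 5273. The median log2 fold change of the 14 was -0.19. As labelled none was called either. At 300 min against 30 min MSF1, the mitochondrial phenylalanyl-tRNA synthetase gene, was higher by 1.37 ± 0.08 and AIM10, a gene related to prolyl-tRNA synthetases, by 0.85 ± 0.05, and none was lower. Of all genes 8.59% were higher in that comparison and 6.64% lower. As labelled neither MSF1 nor AIM10 was called. Of 6 mitochondrial translation factor genes 3 were called lower at 30 min than at 0 min, where 19.7% of all genes were. They were MEF2 (-1.55), TUF1 (-1.23) and IFM1 (-0.85). TUF1 and MEF2 encode mitochondrial elongation factors and IFM1 an initiation factor. As labelled none of these 6 was called, and without the 0 min array of culture a the count was again 3.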
